A study of Mus musculus with 6 samples.

Results

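Circular RNAs (circRNAs) whose host genes act in amino acid metabolism were examined in mouse liver. A host gene was a member when the pathway column of the deposited table listed it under any of 10 KEGG amino acid pathways and its GO column listed none of 4 terms for lipid metabolism, fatty acid metabolism, chromatin organization and covalent chromatin modification. The rule found 68 of 3468 host genes, and these gave 155 of the 7469 listed circRNAs. Another 31 host genes of the same pathways were removed by the GO terms. Liver RNA came from C57BL/6J mice aged 12 weeks, 3 fed a high-fat diet (HFD group) and 3 fed a low-fat diet (LFD group). Per the study's methods mice of both groups were fasted before the tissue was taken, and no engineered allele is named. Each library is a mixture of all liver cells, so that fewer cells of a type and less RNA per cell cannot be told apart. Levels are given as counts of back-spliced reads, which cross the point where a circle closes on itself, and as SRPBM, the same reads normalized by how many reads the library had mapped. SRPBM counts 1 junction per circle and is not divided by circle length.

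The liver is the main site where most amino acids are broken down, while branched-chain amino acids start their breakdown largely in muscle. Amino groups removed in the liver pass into glutamate and then into urea, and the carbon skeletons enter the citric acid cycle or are used to make glucose and ketone bodies. A circRNA forms when a downstream splice donor joins an upstream splice acceptor of the same transcript, or when an excised intron stays closed as a lariat. A back-spliced read therefore reports a circle from the gene and not the level of its mRNA.

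Exonic circles that carried many of the member reads are shown by their junctions, because the junction is the sequence that distinguishes a circle from the linear transcript. Each line gives the last 15 bases before the junction in lower case and the 15 bases after it in capitals, 5′ to 3′ on the gene's strand. The sequences were read from GENCODE M21 transcripts (GRCm38). The circle of Bckdhb joined exon 8 to exon 4 (chr9:83988776-84012619, plus strand), that of Aass exon 11 to exon 2 (chr6:23107140-23122737, minus strand), that of Cth exon 4 to exon 2 (chr3:157918426-157921036, minus strand) and that of Hibadh exon 4 to exon 2 (chr6:52619977-52630349, minus strand). The circle of Asl joined exon 8 to exon 4 (chr5:130016097-130018916, minus strand).
Bckdhb mmu_circ_0001822: gatacagtttgcaagGAAAAGATAGAGTGT
Aass circRNA817: tatgttgaagaaatgCTACCACATTTGAAG
Cth circRNA1163: acaccacaaaccaagGGTTTTGAATACAGC
Hibadh mmu_circ_0013437: cccctgtctccggtgTGTGTTCTAGGTCAA
Asl mmu_circ_0001413: cttgccactggggagGTTGCTGAAGAGTGG

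The members held 1229 of 36218 back-spliced reads (3.39%). They had 259, 207 and 226 reads in HFD mice and 134, 168 and 235 reads in LFD mice, given here and below in the order of library numbers 1 to 3. Their summed level was 59.4, 52.7 and 60.7 SRPBM in the HFD group and 35.7, 46.5 and 62.0 SRPBM in the LFD group. The groups overlapped, since the highest level of all was that of LFD 3. The mean was 57.6 ± 4.32 SRPBM (SD, n = 3) in HFD mice and 48.0 ± 13.2 SRPBM (SD, n = 3) in LFD mice, and the difference, 9.55 SRPBM, was smaller than the SD among LFD mice. Without LFD 1 the difference was 3.37 SRPBM, and without LFD 3 it was 16.5 SRPBM. As a share of the library's reads, the members took 3.65% ± 0.458 (SD, n = 3) in HFD mice and 3.09% ± 0.625 (SD, n = 3) in LFD mice.

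Member reads were concentrated in few genes. Bckdhb, Hykk, Aass, Cth and Hibadh held 710 of the 1229 reads (57.8%), whereas 22 members had 1 read and 9 had 2 reads in all. Summed over these 5 genes, the level was 35.1, 33.1 and 39.2 SRPBM in HFD mice and 21.6, 23.5 and 30.3 SRPBM in LFD mice. These sums did not overlap, but the 5 genes were picked for their read number in the same libraries, and no test was made. The other members summed to 24.3, 19.6 and 21.5 SRPBM in HFD mice and 14.1, 23.0 and 31.6 SRPBM in LFD mice, where LFD 1 was lowest and LFD 3 highest. A library contained reads of 34, 28 and 32 member genes in the HFD group and of 26, 27 and 34 in the LFD group.

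**Figure D1:**
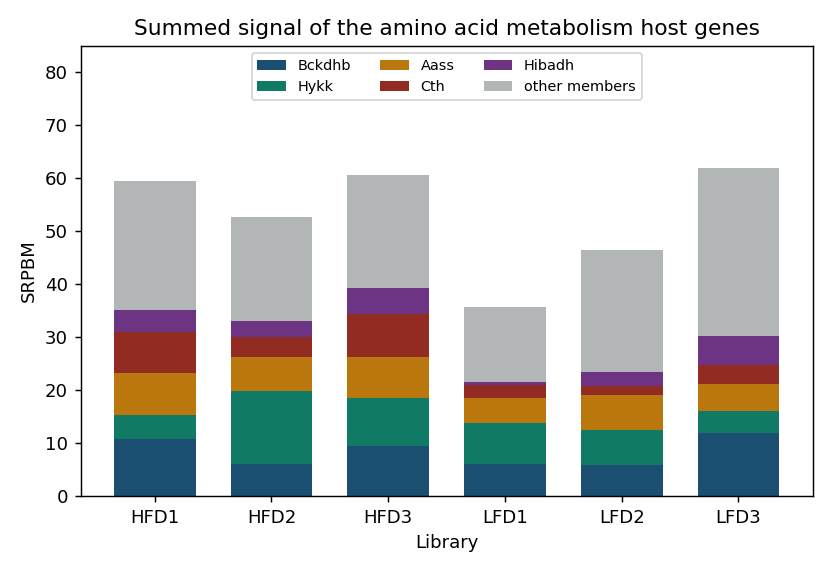
Summed SRPBM of the 68 member host genes in each of the 6 libraries, stacked by the 5 genes with most reads and all other members; each bar is 1 library. The 3 HFD bars stand between 52.7 and 60.7 SRPBM, and the LFD bars range from 35.7 to 62.0 SRPBM.

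The whole libraries held 5384 to 6590 back-spliced reads. In a single library 3 reads, taken as its smallest detectable level, equalled 0.688 to 0.830 SRPBM. This floor and all counting intervals cover counting error only. HFD 1 and LFD 3 had the higher sequencing quality class in the study's quality control (bases above Q30), and the other 4 libraries the lower class. Among 10 hepatocyte markers 9 hosted circRNAs, with summed reads of 37, 14 and 13 in HFD mice and 16, 5 and 43 in LFD mice, highest in the libraries of the higher class, and Serpina1a was at 0. The members Cps1 and Ass1 are on this list and gave 16 of the 43 reads in LFD 3. Of 8 Kupffer cell or macrophage markers 2 hosted circRNAs, of 8 endothelial markers 3, of 8 stellate cell markers 1, and of 6 cholangiocyte and 6 lymphocyte markers none, with at most 4 summed reads in any library. The part of cell composition in the results below was not tested.

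In the comparison of host genes, 1 of the 37 members with reads in at least 2 libraries passed the thresholds, which were an unadjusted p under 0.05 and a log2 fold change of 1 or more in either direction (edgeR quasi-likelihood test). The background was 42 of 1834 host genes (2.29%), 23 of them higher in the HFD group (1.25%) and 19 higher in the LFD group (1.04%). With library sizes set by mapped reads the split was 26 higher and 14 lower, and it was 17 higher and 44 lower without LFD 1 and 38 higher and 15 lower without HFD 2. No host gene had a Benjamini-Hochberg adjusted p under 0.05, the smallest being 0.798 by edgeR. DESeq2 called 25 host genes on the unadjusted thresholds, 1 of them a member, and also 0 after adjustment. Of the 37 members 16 were higher and 21 lower in the HFD group, with a median log2 fold change of -0.10 against -0.09 over all host genes tested. The sign of the member median turned under several alternatives, to 0.14 with the replicate block, 0.15 with the Q30 class, 0.08 with the filter of 3 libraries, 0.07 without a filter, 0.26 in the lower quality class alone, and 0.12 to 0.34 without any of HFD 1, HFD 2, HFD 3, LFD 2 or LFD 3. Over all host genes tested the median turned as well with the filter of 3 libraries (0.05) and without any of those libraries (0.01 to 0.12). It stayed negative with the replicate block (-0.06), the Q30 class (-0.01), no filter (-0.02) and the lower quality class alone (-0.10). Without LFD 1 the member median was -0.20, against 0.03 over all host genes tested. Among members with at least 10 reads, 10 of 18 were higher, with a median of 0.26 against -0.02 over 770 host genes with as many reads. Groups did not overlap for 2 members, Cth and Aox3, both higher in the HFD group, where 3.27% of host genes tested did so. No member lay wholly higher in the LFD group, where 2.94% of host genes did (6.22% in either direction).

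**Figure D2:**
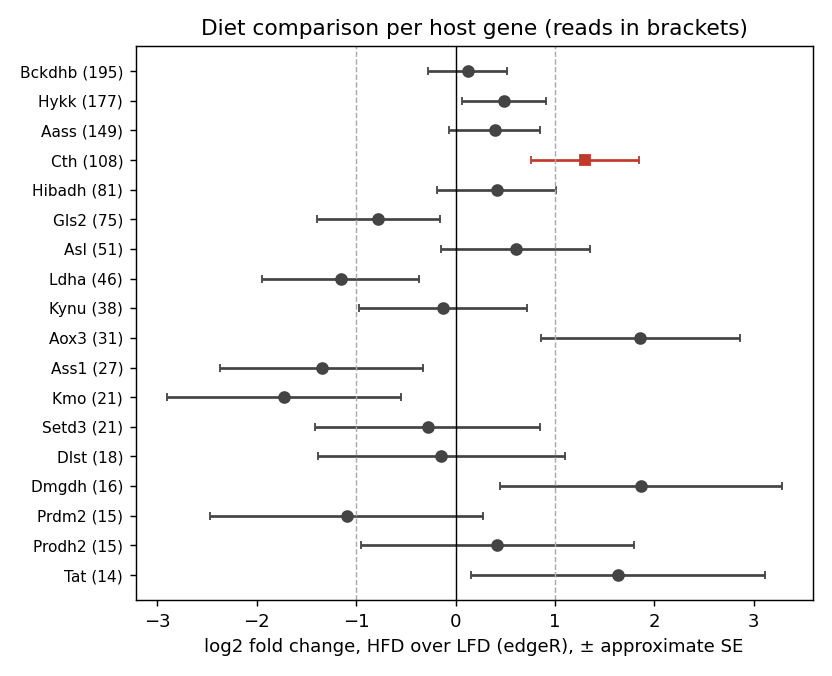
Log2 fold change, HFD over LFD, of the 18 member host genes with at least 10 reads, in order of reads (number in brackets); points are edgeR estimates and bars an approximate SE. Cth, drawn as a square, is the member past the unadjusted thresholds, and estimates run from -1.73 for Kmo to 1.86 for Aox3 and Dmgdh.

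Cth encodes cystathionine gamma-lyase, the last enzyme of the transsulfuration route that makes cysteine from methionine. Its circles had 34, 15 and 30 reads in HFD mice and 9, 6 and 14 reads in LFD mice. Every HFD library lay above every LFD library, the closest pair being HFD 2 (3.82 SRPBM) and LFD 3 (3.69 SRPBM). The level was 6.56 ± 2.38 SRPBM (SD, n = 3) in HFD mice and 2.58 ± 1.03 SRPBM (SD, n = 3) in LFD mice, a ratio of 2.54. The log2 fold change was 1.30 (SE 0.54), with an unadjusted p of 0.0160 and an adjusted p of 0.798 by the edgeR quasi-likelihood test. The call was lost when any of 4 libraries was left out: the log2 fold change was 1.06 without HFD 1, 1.20 without HFD 3, 1.28 without LFD 1 and 1.08 without LFD 2, with unadjusted edgeR p of 0.0535 to 0.0715. In the lower quality class the reads were 15 and 30 against 9 and 6, and in the higher class 34 against 14. Nearly all of the signal (93.5%) came from circRNA1163, whose junction is printed above and which holds exons 2 to 4 of 12, 288 nt in all. Taken alone, circRNA1163 had 31, 15 and 27 reads against 9, 5 and 14, a ratio of 2.43 in mean SRPBM, and missed the thresholds with an unadjusted p of 0.0571 (edgeR, log2 fold change 1.20, adjusted p = 0.694). It passed them in 7 other edgeR settings, namely without TMM (unadjusted p of 0.0463), with library sizes set by mapped reads (0.0482), with the Q30 class in the model (0.0263), with a filter of 3 libraries (0.0402), without HFD 2 (0.0367), without LFD 3 (0.0142) and with entries 1 bp apart summed (0.0371). It missed them in 8 others, namely with DESeq2 (0.0506), without a filter (0.0591), in the lower quality class alone (0.0768), with the replicate number in the model (0.0769), and without HFD 1 (0.161), HFD 3 (0.134), LFD 1 (0.0698) or LFD 2 (0.174).

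The other genes of methionine and cysteine metabolism gave fewer reads. Of 33 genes in the list for this route 10 were members, with 174 reads, and of the 5 tested (median -1.15) Cth alone passed, and the other 4 had negative estimates. Ldha, lactate dehydrogenase A, which KEGG places here, had 8, 5 and 2 reads in HFD mice and 5, 17 and 9 reads in LFD mice. The groups overlapped, and LFD 2 was the highest library. Its level was 1.21 ± 0.651 against 2.80 ± 1.73 SRPBM (SD, n = 3), a log2 fold change of -1.15 (SE 0.79, edgeR adjusted p = 0.798), which was -0.59 without LFD 2 and -1.68 without HFD 1. Mtr, methionine synthase, had reads in LFD 1 (2 reads) and LFD 3 (4 reads) and none in the HFD group. Set against 3 reads summed over the HFD group, the LFD level was 2.15-fold higher (edgeR adjusted p = 0.798). This value leaves out counting error in the LFD reads. Cbs, cystathionine beta-synthase, which acts directly before Cth, had 6 reads, too few for a fold.

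Bckdhb, the beta subunit of the dehydrogenase that commits branched-chain amino acids to breakdown, had the most reads of all members (195). It had 47, 24 and 35 reads in HFD mice and 23, 21 and 45 reads in LFD mice. The 2 libraries of the higher quality class, HFD 1 and LFD 3, had the most reads in their groups. The level was 8.76 ± 2.40 against 7.93 ± 3.41 SRPBM (SD, n = 3), a log2 fold change of 0.12 (SE 0.40, edgeR adjusted p = 0.976). This log2 fold change turned to -0.16 without HFD 1, -0.0096 without LFD 1 and -0.048 without LFD 2. Without HFD 2, HFD 3 or LFD 3 it was 0.13 to 0.52. Of its 9 circles, mmu_circ_0001822 (exons 4 to 8, 608 nt) had 108 reads and mmu_circ_0015952 (exons 2 to 6, 546 nt) had 52 reads. Both circles hold exons 4 to 6, and both had their most reads in HFD 1 and LFD 3 within each group, with 26, 15, 18 against 8, 9, 32 reads for the former and 14, 3, 7 against 9, 7, 12 for the latter. A further entry, ciRNA332 (25 reads), was listed as intronic, but its span of 39540 bp contains 5 annotated exons and it ends on the same base as mmu_circ_0015952 (chr9:83952283-83991822).

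Hibadh, 3-hydroxyisobutyrate dehydrogenase of valine breakdown, had 18, 12 and 18 reads in HFD mice and 2, 10 and 21 reads in LFD mice. The LFD libraries held both the lowest and the highest value, and the levels were 4.01 ± 0.897 against 2.95 ± 2.51 SRPBM (SD, n = 3). The log2 fold change was 0.41 (SE 0.60, edgeR adjusted p = 0.976), which was -0.0638 without LFD 1 and 1.25 without LFD 3. Hibch, which acts just before it in valine breakdown, had 4 reads in HFD 2, 4 reads in LFD 2 and none elsewhere, all from an entry listed as intronic that contains 2 annotated exons. Of 43 genes in the list for branched-chain amino acids 11 were members, with 328 reads. Of the 5 tested, 3 had positive and 2 negative estimates (median 0.12), and none passed.

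The list for lysine held the largest share of member reads, 373 reads from 11 members of 48 genes. This list includes the histone lysine methyltransferase Prdm2 (15 reads). Aass, the bifunctional enzyme that opens the main lysine route, had 34, 25 and 29 reads in HFD mice and 18, 24 and 19 reads in LFD mice. In reads the groups did not overlap, but in SRPBM they did, with HFD 2 at 6.36 and LFD 2 at 6.64. The levels were 7.32 ± 0.828 against 5.48 ± 1.01 SRPBM (SD, n = 3), a log2 fold change of 0.39 (SE 0.45, edgeR adjusted p = 0.976). Its circle of exons 2 to 11 (1293 nt, 142 reads) gave 95.3% of the gene's reads. Dlst, the succinyltransferase subunit of the oxoglutarate and oxoadipate dehydrogenases, had 0, 6 and 3 reads against 2, 5 and 2. Of the 6 genes of this list that were tested, 4 had positive and 2 (Dlst and Prdm2) negative estimates (median 0.44), and none passed.

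Hykk, hydroxylysine kinase, which phosphorylates the hydroxylysine released from collagen, differed from the other leading members in that both of its circles were intronic. It had 20, 54 and 34 reads in HFD mice and 29, 24 and 16 reads in LFD mice. HFD 2 was the highest library, and HFD 1 lay below 2 of the LFD libraries. The levels were 9.15 ± 4.58 against 6.19 ± 1.79 SRPBM (SD, n = 3), a log2 fold change of 0.49 (SE 0.42, edgeR adjusted p = 0.976), which was 0.12 without HFD 2, 0.23 without LFD 3 and 0.76 without HFD 1. Its main circle, ciRNA277 (chr9:54917859-54918246, plus strand, 388 bp, 156 reads), had the most reads of any member circRNA. It starts at the 5′ end of an intron listed with 2615 bp and ends 2227 bp before that intron's 3′ end. The end lies directly before an exon of another annotated Hykk transcript. Whether that exon and the exon before the circle are neighbours in the same transcript was not checked. The other circle, ciRNA438 (21 reads), starts on the same base and ends 1 bp earlier.

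Setd3 and Prdm2 stood in the lysine degradation pathway of KEGG as protein methyltransferases. Setd3, which methylates a histidine of actin, had 3, 2 and 5 reads in HFD mice and 7, 2 and 2 reads in LFD mice. Prdm2, a histone lysine methyltransferase, had 1, 2 and 2 reads against 5, 4 and 1. The groups overlapped for both genes, with log2 fold changes of -0.28 for Setd3 and -1.09 for Prdm2.

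Gls2 is the liver-type glutaminase, which releases ammonia from glutamine in hepatocytes around the portal vein. It had 14, 3 and 12 reads in HFD mice and 7, 14 and 25 reads in LFD mice. HFD 2 was the lowest library and LFD 3 the highest, and the groups overlapped. The levels were 2.40 ± 1.42 against 4.11 ± 2.37 SRPBM (SD, n = 3), a log2 fold change of -0.78 (SE 0.62, edgeR adjusted p = 0.949), which was -0.25 without LFD 3, -0.31 without HFD 2 and -1.15 without HFD 1. Of 31 genes in the list for glutamate, glutamine, alanine and aspartate 7 were members (92 reads), of the 4 tested 1 had a positive and 3 a negative estimate (median -0.44), and none passed.

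In the urea cycle, Asl, argininosuccinate lyase, had 9, 13 and 10 reads in HFD mice and 4, 7 and 8 reads in LFD mice. In SRPBM HFD 1 (2.06) lay just below LFD 3 (2.11), so that the groups overlapped. The levels were 2.69 ± 0.621 against 1.70 ± 0.560 SRPBM (SD, n = 3), a log2 fold change of 0.61 (SE 0.75, edgeR adjusted p = 0.976). The circle mmu_circ_0001413 had 6, 7 and 9 against 4, 6 and 7 reads, while circRNA979, from exons 11 to 14, had 3, 6 and 0 against 0, 0 and 1. By edgeR circRNA979 did not pass, with an unadjusted p of 0.217 and an adjusted p of 0.932.

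Ass1, argininosuccinate synthase, which precedes Asl, had 1, 4 and 3 reads in HFD mice and 3, 1 and 15 reads in LFD mice. LFD 3 stood apart through circRNA6209, a circle of exons 10 to 12 with 12 reads in LFD 3 and none in the other 5 libraries. The log2 fold change of Ass1 was -1.35 (SE 1.02, edgeR adjusted p = 0.918) and became 0.19 without LFD 3. Cps1, the carbamoyl phosphate synthetase that feeds ammonia into the cycle and among the most abundant liver proteins, had 6 reads in all. Of 7 genes in the urea cycle list 4 were members (85 reads), of the 3 tested 2 had positive estimates and 1 a negative one (median 0.61), and none passed.

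Aox3, an aldehyde oxidase that KEGG lists for valine, tyrosine and tryptophan breakdown, had 13, 6 and 6 reads in HFD mice and 3, 0 and 3 reads in LFD mice. All HFD libraries lay above all LFD libraries. The levels were 2.04 ± 0.817 against 0.530 ± 0.459 SRPBM (SD, n = 3), a ratio of 3.85. The log2 fold change of 1.86 did not pass, with an unadjusted p of 0.0637 and an adjusted p of 0.798 by edgeR. Its 31 reads were spread over 11 listed entries, 7 of them intronic, and no entry had reads in all libraries. Not all entries are clearly separate circles. The intronic ciRNA260, ciRNA433, ciRNA259, ciRNA556 and ciRNA928 start on the same base (chr1:58118695) and differ in their ends. The entry with the most reads, circRNA1312 (13 reads), holds exons 33 and 34 of 35.

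In tryptophan breakdown, Kynu, kynureninase, had 9, 6 and 4 reads in HFD mice and 1, 9 and 9 reads in LFD mice, with a log2 fold change of -0.12 (SE 0.84, edgeR adjusted p = 0.976). The LFD libraries covered a wider range than the HFD libraries. Kmo, kynurenine 3-monooxygenase, had 5, 0 and 0 reads against 4, 0 and 12. Its log2 fold change was -1.73 (SE 1.18, edgeR adjusted p = 0.798), and without HFD 1 it was -5.52 and past the unadjusted thresholds, since no HFD read was then left. Tdo2, which opens the pathway in liver, had 4, 0 and 2 reads against 0, 0 and 1, a ratio of 5.57 with a 95% exact interval of 0.676 to 256. Of 22 genes in the list for tryptophan and kynurenine 6 were members (70 reads), of the 4 tested 1 had a positive and 3 a negative estimate (median -0.13), and none passed.

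Tat, tyrosine aminotransferase, the gateway of tyrosine breakdown, had 7, 1 and 3 reads in HFD mice and 1 read in each LFD library. HFD 2 lay at the LFD values, and the ratio of 3.41 had a 95% exact interval of 0.900 to 19.02 (edgeR adjusted p = 0.976). Its largest entry, the intronic ciRNA300, had 6 reads in HFD 1 and 2 reads in HFD 3. Of 26 genes in the list for tyrosine and phenylalanine 5 were members (25 reads), and of the 2 tested 1 had a positive and 1 a negative estimate (median 0.77), with none past.

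**Figure D3:**
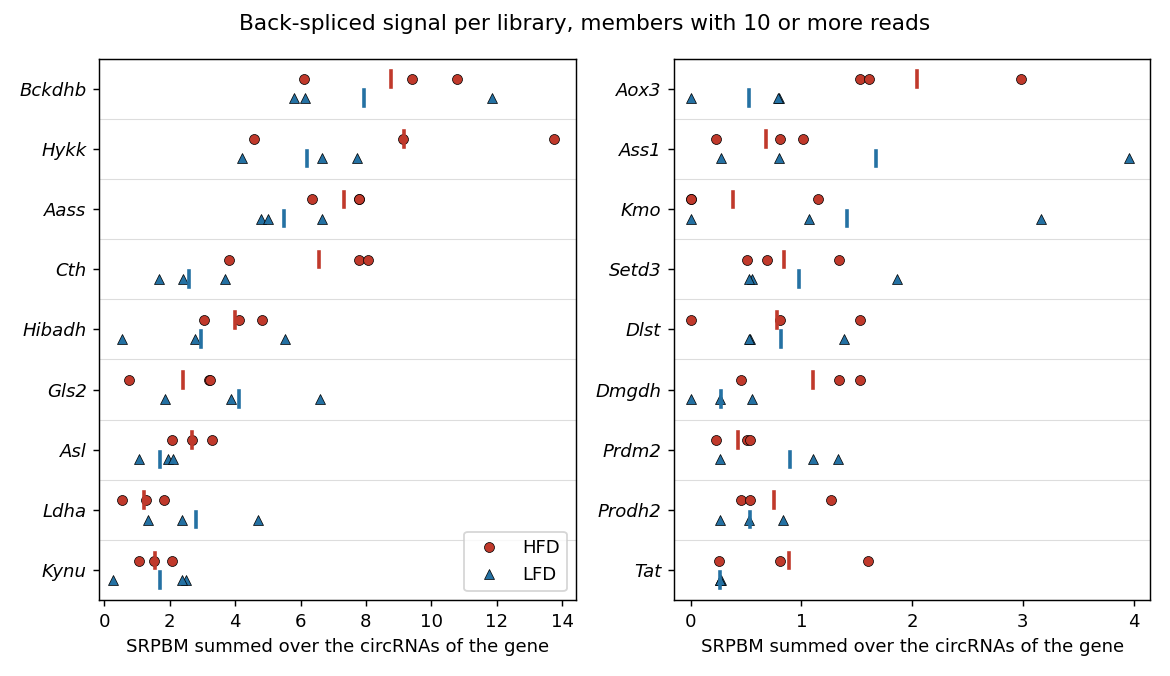
SRPBM of the 18 member host genes with at least 10 reads; circles are HFD libraries, triangles LFD libraries and vertical ticks the group means (n = 3), and the right panel has a narrower scale. Circles and triangles separate fully for Cth and Aox3 and overlap for the others.

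Dmgdh, dimethylglycine dehydrogenase of choline breakdown, gave the member circRNA that passed the thresholds in the comparison of single circles. Of the 38 member circles with reads in at least 2 libraries 1 passed, against 49 of 2041 circRNAs tested (2.4%), 24 of them higher in the HFD group (1.18%) and 25 higher in the LFD group (1.22%). With library sizes set by mapped reads the split was 28 higher and 16 lower. By edgeR 0 of the 2041 had an adjusted p under 0.05, while 1 circRNA did so without a filter (0.000686) and 1 without HFD 3 (0.0219), neither from a member, and DESeq2 called 11 on the unadjusted thresholds and 0 after adjustment. The circle, circRNA50 (exons 3 to 5, 469 nt, chr13:93686928-93692076, plus strand), had 2, 6 and 5 reads in HFD mice and 0 in each LFD library. Set against 3 reads summed over the LFD group, it was 4.03-fold higher, a value that leaves out counting error in the HFD reads. By edgeR the unadjusted p was 0.0269 and the adjusted p was 0.694. The call was lost without HFD 2, where edgeR gave an unadjusted p of 0.0614, without HFD 3, where it gave 0.0587, and with the replicate number in the model, where it gave 0.0926.

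The deposited table also lists circRNA5627, whose start lies 1 bp further on and whose end is the same. It had 2 reads in LFD 2 and 0 in the other libraries. Their junctions are printed to show how close the entries are, with the part before the junction in lower case.
Dmgdh circRNA50: ttgtgaatgctgcagGCAGGTTTAACAACT
Dmgdh circRNA5627: ttgtgaatgctgcagCAGGTTTAACAACTT

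The start of circRNA50 is the annotated start of exon 3, and that of circRNA5627 is not. When entries 1 bp apart were summed, the log2 fold change was 2.33 with an unadjusted p of 0.161 and an adjusted p of 0.715 by edgeR, so that the call was lost. Over all its circles Dmgdh had 2, 6 and 5 reads against 0, 2 and 1, a ratio of 4.03 with a 95% exact interval of 1.11 to 22.0 from the counts alone (edgeR log2 fold change 1.86, adjusted p = 0.923).

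A pair of the same kind occurred in Prodh2, the dehydrogenase of hydroxyproline. Its entry circRNA4444 had 1, 3 and 1 reads in LFD mice and 0 in HFD mice, while circRNA3038, 1 bp further on, had 5 reads in HFD 2 only. Summed, they had a log2 fold change of -0.20 (edgeR adjusted p = 0.984). In all, 7 pairs of member entries (14 circles, in Aox3, Bckdhb, Cbs, Dmgdh, Fah, Kynu and Prodh2) had the same end and starts 1 bp apart in genome coordinates, which for Cbs and Fah, on the minus strand, puts the difference at the downstream edge of the circle. These pairs had reads in 20 combinations of pair and library, and in 0 of the 20 did both entries have reads. Another 2 pairs, with the same genome start and ends 1 bp apart, were not summed and did have libraries with reads of both entries. Both Hykk circles had reads in 5 libraries, and ciRNA260 and ciRNA433 of Aox3 each had 2 reads in HFD 2. Member circles whose groups did not overlap were circRNA1163 (Cth) and circRNA50 (Dmgdh), higher in the HFD group, where 3.14% of circRNAs tested did so, and circRNA4444 (Prodh2), higher in the LFD group, where 1.81% did so (4.95% in either direction).

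**Figure D4:**
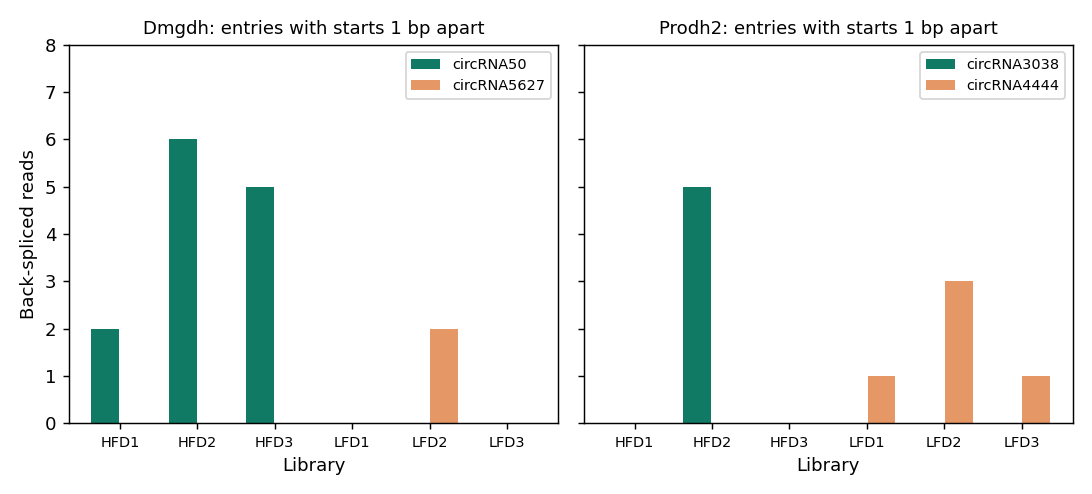
Back-spliced reads per library of the paired entries of Dmgdh (left) and Prodh2 (right), whose starts lie 1 bp apart; each bar is 1 entry in 1 library. No library has reads of both entries of a pair.

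In the list for glycine, serine, choline and one-carbon metabolism 9 of 30 genes were members (41 reads), of the 4 tested 2 had positive and 2 negative estimates (median 0.87), and none passed. Shmt1, the cytosolic serine hydroxymethyltransferase, had 0, 0 and 1 reads in HFD mice and 1, 1 and 4 in LFD mice. Its ratio of 0.155 had a 95% exact interval of 0.00337 to 1.28. In the list for arginine, proline and polyamines 5 of 36 genes were members (22 reads), with 15 of the reads from Prodh2, which had 2, 5 and 2 reads against 1, 3 and 2. Of the 2 tested 1 had a positive and 1 a negative estimate (median -0.48), and none passed. In the list for histidine 3 of 11 genes were members, with 4 reads in all, and the 1 gene tested did not pass. Among 5 aldehyde dehydrogenases shared by several pathways, Aldh7a1 was a member, with 2 reads in LFD 2.

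The member circles were compared with the 7224 circles of the other 3400 host genes as a description. Of the 113 exonic member entries 112 could be placed on exons of the listed GENCODE M21 transcript, all with the listed number of exons. They held a median of 3 exons, as did the others, with a median spliced length of 387.5 nt against 398.5 nt. Their flanking introns were shorter, with a median of 3837 bp against 6991 bp upstream and 3537 bp against 5283.5 bp downstream. Exon 2 was the first exon of the circle in 24.1% of member entries and 28.8% of the others, and no placed member circle held a first or last exon. Coding exons alone made up 87.5% of the placed member circles (98 of 112) against 77.2%. A database name was carried by 11.6% of member entries against 29.1% of the others, whereas reads in all 6 libraries were found for 7.74% against 2.24%.

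**Figure D5:**
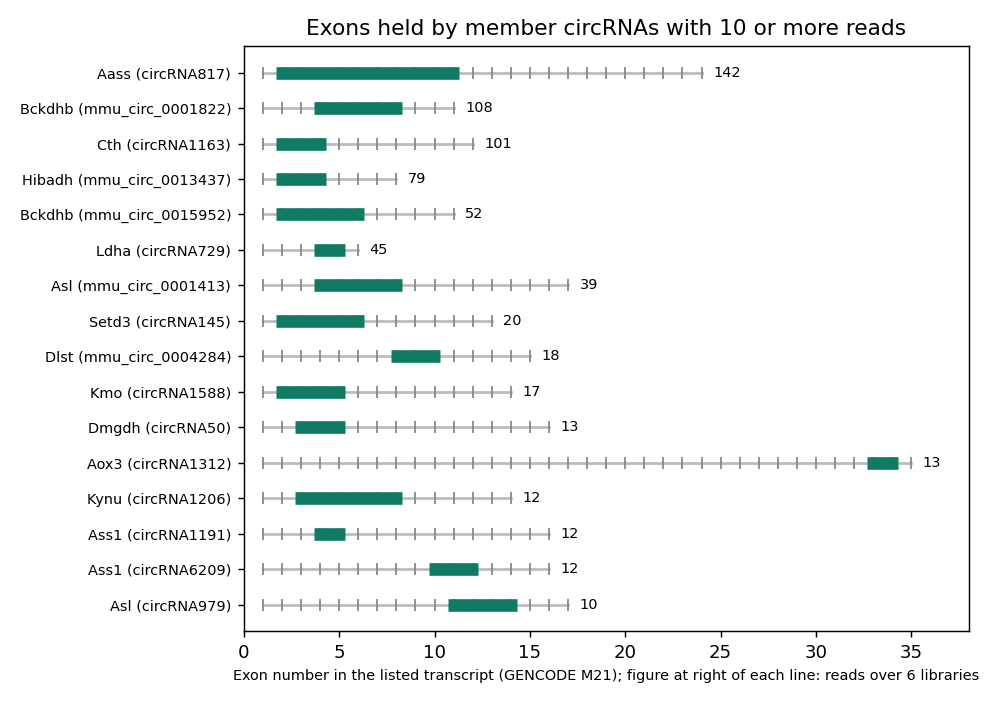
Exons held by 16 of the 17 placed exonic member circles with at least 10 reads, on an axis of exon numbers of the listed transcript; ticks mark exons, bars the circle, and the number at the right the reads over 6 libraries. Bars of Aass, Cth, Hibadh, Setd3, Kmo and Bckdhb mmu_circ_0015952 begin at exon 2, and that of Aox3 lies near the 3′ end of the transcript.

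Intronic entries made up 42 of the 155 member circles (27.1%) against 12.9% of the others, and 274 of the member reads (22.3%) against 6.15%. Hykk held 64.6% of these intronic reads, and without Hykk the share was 97 of 1052 reads (9.22%). Intronic entries occurred in 29 members, 12 of which had no exonic circle, and 23 of the 42 entries had 1 read. All 42 began at the 5′ end of the intron that the deposited table lists for the entry, as did all 931 other intronic entries. Whether this match follows from how the caller classes entries as intronic was not tested. Of the 42, 36 ended within 100 bp of that intron's 3′ end (85.7%, against 84.7% of other intronic entries). For 9 of the 42 the listed intron had the same span as the circle, so that both distances were 0. Of these 9, 3 contained annotated exons. The median distance from the intron's 3′ end was 25.5 bp against 24 bp. In 5 of the 42 the listed span contained annotated exons, as for ciRNA332 of Bckdhb. The intronic share of member reads was 20.5%, 35.7% and 23.5% in HFD mice and 26.9%, 19.6% and 10.6% in LFD mice. Over all circRNAs the intronic share was highest in HFD 1 (10.8%) and LFD 3 (8.28%), the libraries of the higher quality class, which for the members were the lowest of each group.

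Hykk (9.15 SRPBM), Bckdhb (8.76), Aass (7.32) and Cth (6.56) had the highest mean levels in the HFD group, followed by Hibadh (4.01), Asl (2.69) and Gls2 (2.40). In the LFD group the order was Bckdhb (7.93 SRPBM), Hykk (6.19), Aass (5.48), Gls2 (4.11), Hibadh (2.95), Ldha (2.80) and Cth (2.58). Neighbours in these orders differed by less than the larger of their SDs, except for Cth and Hibadh and for Hibadh and Asl in the HFD group.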

How the data were processed

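Liver RNA of 6 mice was depleted of ribosomal RNA, made into strand-marked libraries and sequenced in pairs. The study's methods also describe RNase R, which digests linear RNA. The submitters' processing notes name cutadapt 1.9 and TopHat2 2.0.4, and the methods name CIRCExplorer2 and CIRI as callers. The authors deposited an unnormalized count of back-spliced reads per circRNA and library. The authors also deposited SRPBM, a signal scaled to mapped reads, which equalled the count times 1 factor per library. The notes name mm9, but listed positions matched exons of GENCODE M21 (GRCm38).

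Counts were summed per host gene, and 90 entries without a host gene (2.20% of reads) entered the circRNA test only. A gene or circRNA needed reads in 2 or more libraries to be tested, and all of them were fitted together with edgeR 4.0.16 in R 4.3.3 (TMM, glmQLFit, glmQLFTest), HFD against LFD, 3 libraries each, with Benjamini-Hochberg adjustment. A call required p under 0.05 before adjustment and a log2 fold change of 1 or more in either direction. SEs are the estimate divided by the root of F and are approximate. The scripts were tested on simulated counts. A fold against a group without reads was set against 3 reads summed over the libraries of that group, which is lower than 3 reads in each library. Such a fold does not cover counting error in the other group. A ratio with 1 to 3 reads in a group has an exact 95% interval. P-values set the difference between the groups against the spread among these libraries, estimated with information shared over all genes or circRNAs tested.

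Genes named with values are the 20 members with most reads (21 with a tie), those past the thresholds, and a few added after their values were seen (Mtr, Cbs, Cps1, Aldh7a1, and the partner entries 1 bp apart). The rule named the circle with most reads of each gene, and some other circles, such as circRNA979 of Asl, are named outside that rule. The members, role lists and rules were chosen with earlier results of these data known. Alternatives were no TMM, library sizes from the SRPBM factor, DESeq2 1.42.0, filters of 3 libraries or none, the replicate number or the Q30 class in the model, the 4 libraries of the lower class alone, each library left out, and entries with the same end and starts 1 bp apart summed. Tables and figures were made with matplotlib 3.10.9, SciPy 1.17.1, pandas 2.3.3 and NumPy 2.4.6 under Python 3.11.15. The sequences of intronic circles were not used here, and 1 member circle is not reported here, although counts include it.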

Additional observations from a re-analysis of the deposited data

How the results depend on the processing

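Of 289 log2 fold changes of the 21 named genes under an alternative, 266 kept their direction and side of the thresholds. Host genes past the thresholds numbered 42, and 25 with DESeq2, 27 with the Q30 class in the model and 35 to 61 with 1 library left out, where the split ran from 17 higher and 44 lower without LFD 1 to 38 higher and 15 lower without HFD 2. CircRNAs past them numbered 49, and 11 with DESeq2, 13 with the Q30 class, 26 in the 4 libraries of the lower class and 20 to 39 with 1 library left out, the lowest being 20 without HFD 2, 21 without LFD 2, 22 without HFD 3 and 27 without LFD 3. An adjusted p under 0.05 was found for 1 circRNA without a filter (0.000686) and 1 without HFD 3 (0.0219), neither from a member. The replicate numbers did not pair the libraries (correlations of same-numbered libraries -0.11, 0.10 and -0.09), and with the replicate number as a block 14 host genes, 10 circRNAs, 1 member gene (Cth) and 0 member circRNAs passed, while Kynu turned to 0.0215. Member genes past the thresholds were 2 of 26 tested in the lower class (Cbs and Cth), against 51 of 1326 host genes. With 1 library left out they were 0 to 1 of 30 to 35 tested, against 35 to 61 of 1586 to 1657 host genes. These were Kmo without HFD 1, Glul without LFD 1, Mtr without LFD 2 and Cth without HFD 2 or LFD 3, with 0 without HFD 3. Cth passed under every alternative run except with HFD 1, HFD 3, LFD 1 or LFD 2 left out. Of 38 member circRNAs tested, 2 passed (circRNA1163 and circRNA50) without TMM, with library sizes from the SRPBM factor and with the Q30 class. Over all 2041 circRNAs tested, 48, 44 and 13 passed in these fits. With the filter of 3 libraries 3 of 27 members passed (also circRNA4444), against 52 of 1037 circRNAs. Without a filter 2 of 155 members passed (circRNA50 and circRNA6209), against 46 of 7469 circRNAs. With 1 library left out 0 to 2 of 33 to 35 members passed, against 20 to 39 of 1692 to 1733 circRNAs. The member total differed by 9.55 SRPBM, and by 3.37 to 16.5 with 1 library left out. In the 4 libraries of the lower class Ass1 turned to 0.63 and Dlst to 0.21. With 1 library left out, log2 fold changes that took both signs ranged from -0.16 to 0.52 for Bckdhb, -0.0638 to 1.25 for Hibadh, -0.61 to 0.24 for Kynu, -1.81 to 0.19 for Ass1, -0.69 to 0.60 for Setd3, -1.03 to 0.41 for Dlst, -0.08 to 0.82 for Prodh2 and -0.76 to 0.40 for Hibch. The cause of these changes was not tested. Of the named genes 13 kept their sign throughout. Counts limit the results, since 31 members had reads in 1 library only and were not tested.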
